A study of Mus musculus with 11 samples.

Results

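Regulatory CD4 T cells (Treg) were compared with effector CD4 T cells (Teff) for the accessibility of their chromatin, over every peak of a consensus set of 38509. The comparison rested on 6 of the 11 libraries of the series: 3 Treg libraries of FOXP3+ CD25+ cells and 3 Teff libraries of CD44high FOXP3– cells with low CD73 and low FR4. All cells were untreated CD4+ T cells of polyclonal wildtype C57BL/6 mice carrying the Foxp3-GFP reporter, sorted from mixed spleen and lymph node without culture. The remaining libraries, 3 of anergic cells (CD44high FOXP3–, high in CD73 and FR4 and NRP1+) and 2 of naive cells (CD44low), entered the same fit and are given here as levels only. The labels do not say whether libraries of 1 group came from separate animals, so the p-values measure the spread between libraries, which may be technical.

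Treg cells are the CD4 T cells that restrain immune responses. Their lineage factor is the transcription factor FOXP3, and they live on IL-2 taken up through the high-affinity receptor that CD25 completes. Teff cells in this sort are antigen-experienced CD4 T cells, which can hold the helper programs Th1, Th2 and Th17 with their cytokines. In ATAC-seq a transposase cuts open chromatin, so a peak marks a promoter, an enhancer or another regulatory element that is accessible in the sampled cells.

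Values are the deposited signal, which equals whole reads times 1 factor per library. A log2 fold change is the Treg minus Teff difference of log2(signal + 1), positive where Treg is higher, and is followed by its standard error. Each peak carries the name of the gene whose RefSeq start site was closest, and "kb" beside a gene is the distance of the peak's centre from that site. A peak nearest to a gene need not control it. The lead peak of a gene is its called peak with the largest change in either direction, except for the sort markers, Batf and Bcl2l11, where it is the peak with the smallest adjusted p. In a mixed sort, fewer cells with an open element and less opening per cell cannot be told apart.

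Of the sequences under the peaks, 6 are shown, 300 bases around the centre of peaks that carry the results below, read from the plus strand of the RefSeq GRCm38.p6 genome, which shares the coordinates of mm10. Capitals mark matches, on either strand, to short motifs of transcription factor families, spelled out below. The first 4 windows were more accessible in Treg. They lie in the Foxp3 intron (chrX:7583906-7584205), upstream of Il2ra (chr2:11635054-11635353), upstream of Ppm1b (chr17:84893378-84893677) and upstream of Bcl2l11 (chr2:128092135-128092434).
Foxp3: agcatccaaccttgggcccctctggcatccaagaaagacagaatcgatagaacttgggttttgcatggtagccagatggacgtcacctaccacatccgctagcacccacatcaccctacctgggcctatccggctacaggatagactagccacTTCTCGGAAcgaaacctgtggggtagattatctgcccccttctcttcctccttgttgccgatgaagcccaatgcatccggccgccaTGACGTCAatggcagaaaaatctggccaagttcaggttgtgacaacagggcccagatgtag
Il2ra: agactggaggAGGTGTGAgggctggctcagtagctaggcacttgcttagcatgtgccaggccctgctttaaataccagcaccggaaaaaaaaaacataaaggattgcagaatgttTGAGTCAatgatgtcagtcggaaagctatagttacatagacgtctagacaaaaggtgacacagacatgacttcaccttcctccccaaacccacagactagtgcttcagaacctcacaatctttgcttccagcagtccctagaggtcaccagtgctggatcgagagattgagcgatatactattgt
Ppm1b: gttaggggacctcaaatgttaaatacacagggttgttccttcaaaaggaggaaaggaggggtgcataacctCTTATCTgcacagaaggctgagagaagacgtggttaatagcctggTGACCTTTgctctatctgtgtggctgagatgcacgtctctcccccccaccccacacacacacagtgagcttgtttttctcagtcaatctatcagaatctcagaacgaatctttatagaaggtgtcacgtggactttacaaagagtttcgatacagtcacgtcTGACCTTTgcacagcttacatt
Bcl2l11: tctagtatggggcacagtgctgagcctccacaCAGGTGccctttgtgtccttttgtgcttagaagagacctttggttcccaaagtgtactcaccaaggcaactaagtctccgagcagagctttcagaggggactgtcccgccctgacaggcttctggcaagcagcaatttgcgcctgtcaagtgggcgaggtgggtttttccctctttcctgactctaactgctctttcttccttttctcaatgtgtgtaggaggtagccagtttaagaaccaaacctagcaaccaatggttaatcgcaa
The other two windows were more accessible in Teff. They lie upstream of Ifng (chr10:118435404-118435703) and in an intron of Pir (chrX:164318570-164318869).
Ifng: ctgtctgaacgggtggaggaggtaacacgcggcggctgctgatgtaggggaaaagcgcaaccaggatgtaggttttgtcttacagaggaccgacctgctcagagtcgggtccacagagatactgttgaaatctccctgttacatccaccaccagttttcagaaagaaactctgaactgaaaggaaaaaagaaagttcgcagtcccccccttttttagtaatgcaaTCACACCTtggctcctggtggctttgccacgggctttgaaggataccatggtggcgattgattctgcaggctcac
Pir: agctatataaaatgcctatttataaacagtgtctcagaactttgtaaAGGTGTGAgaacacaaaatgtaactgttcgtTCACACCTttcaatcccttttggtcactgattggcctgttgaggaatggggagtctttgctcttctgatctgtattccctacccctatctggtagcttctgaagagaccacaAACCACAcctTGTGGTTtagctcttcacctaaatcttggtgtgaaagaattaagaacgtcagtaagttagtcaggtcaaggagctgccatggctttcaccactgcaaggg
The Foxp3 window held 10 CG dinucleotides, and it held a match at its centre to the STAT letters TTCNNNGAA. It also held a match to the CRE letters TGACGTCA, which factors of the CREB family read. The Il2ra window held the AP-1 letters TGANTCA, and near its start it held the T-box letters AGGTGTGA. The Ppm1b window held 2 matches to AAAGGTCA, the letters of the NR4A family of orphan receptors, and 1 to AGATAAG, the letters of GATA factors. The Bcl2l11 window held 1 match to CACCTG, the E-box read by E2A. The Pir window held 2 T-box matches and 2 matches to TGTGGTT, the letters of RUNX factors, and the Ifng window held 1 T-box match. Over all distal peaks, STAT letters lay in 8.81%, CRE letters in 0.970%, GATA letters in 4.27% and the E-box in 24.7%, and the shares for the other motifs are given with the motif results. A match is a stretch of letters and not a shown binding site.

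Reads in peaks came to 29.7, 14.7 and 27.4 M in the Treg libraries and to 50.9, 44.3 and 20.9 M in the Teff libraries. The shallowest libraries were Treg replicate 2 and Teff replicate 3. At the 588 peaks at least 4-fold higher in Treg, the median signal was 185.8, 202.2 and 213.3 in Treg, against 27, 30.6 and 43.3 in Teff. At the 673 peaks at least 4-fold lower, it was 38.3, 53.2 and 34.2 in Treg, against 311.5, 284.1 and 233.3 in Teff. Teff replicate 3 stood nearest to Treg at both sets, and Treg replicate 2 stood nearest to Teff at the second. The part of depth or of admixed cells in these shifts was not tested.

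The genes of the sort markers were read first. Foxp3, the gene of the lineage factor, was the nearest gene of 1 peak, intronic and 3.57 kb from its start site (chrX:7583719-7584393). That peak ended a run of 6 higher peaks over 18.1 kb (median 1.59), the rest of them nearest to Flicr or Ppp1r3f. The signal of the Foxp3 peak was 1597, 1118 and 1278 in the Treg libraries, against 15.9, 14.0 and 63.3 in the Teff libraries. All 3 Treg libraries stood far above all 3 Teff libraries, and the third Teff library stood above the other two. The log2 fold change was 5.70 ± 0.41 (limma, adjusted p = 1.68e-09), and it was 4.36 to 6.37 over the alternative settings. The mean signal was 131 in anergic and 11.6 in naive libraries. Il2ra encodes CD25, and 9 of its 13 peaks were higher in Treg and none was lower. At the peak 7.59 kb upstream (chr2:11635056-11635352) the signal was 349, 402 and 391 in Treg, against 37.4, 35.5 and 61.7 in Teff (3.1 ± 0.30, limma adjusted p = 9.32e-08). The peak at the Il2ra start site differed much less, with 705, 556 and 631 in Treg and 482, 422 and 368 in Teff (0.57 ± 0.15, limma adjusted p = 0.0068).

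**Figure D1:**
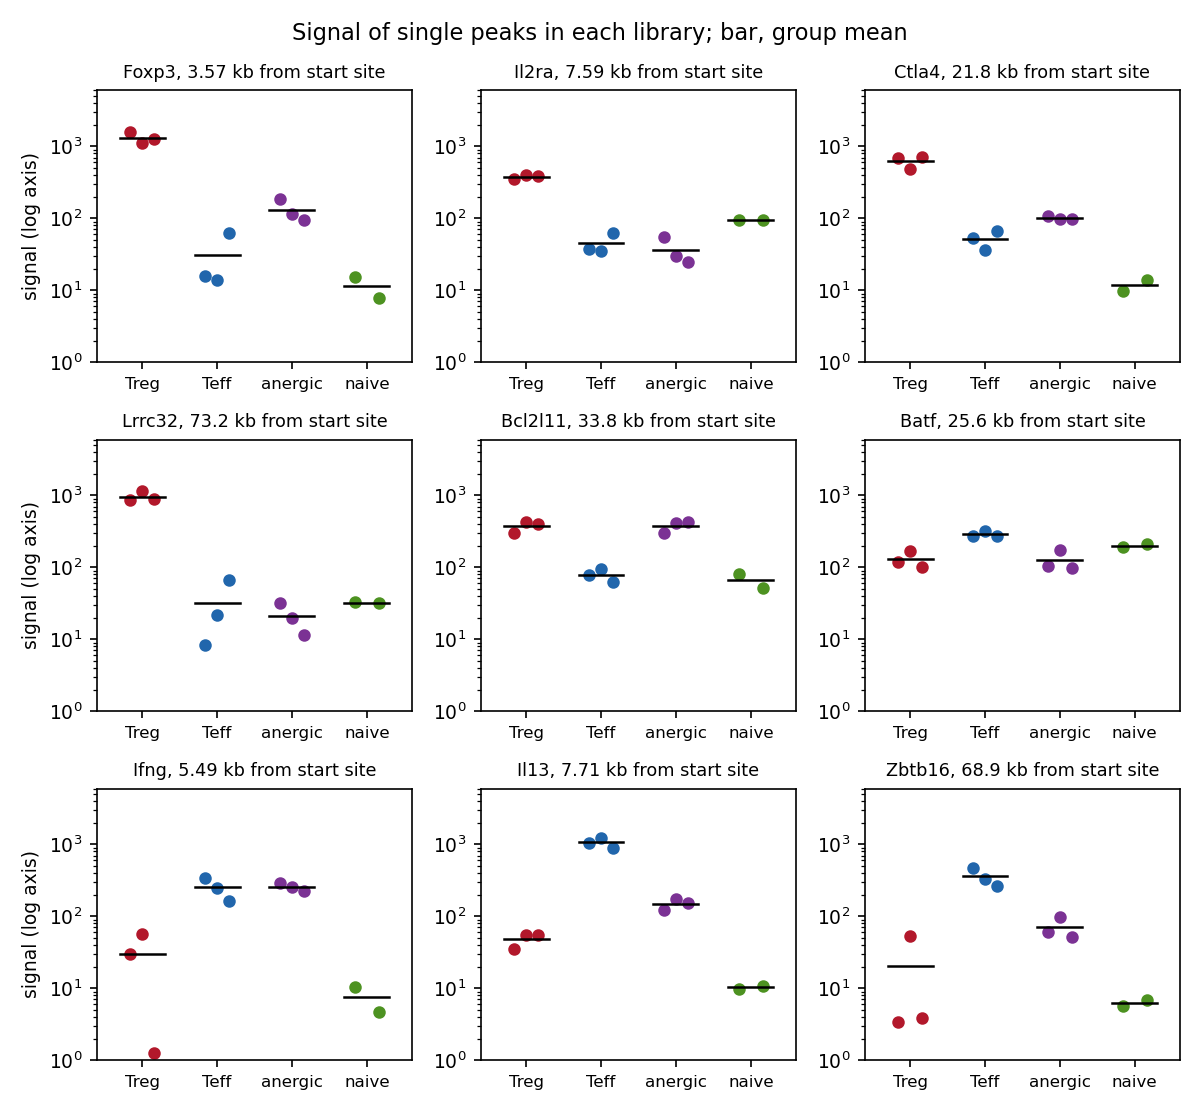
Deposited signal (log axis) of 1 peak for each of 9 genes in the 3 Treg, 3 Teff, 3 anergic and 2 naive libraries, with a point per library and a bar at the group mean. At Foxp3 the 3 Treg libraries sit between 1118 and 1597 and the 3 Teff libraries between 14.0 and 63.3, while at Il13 the Teff libraries are the high ones.

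Cd44, the antigen-experience marker of the Teff sort, did not pass at its start site (372, 377 and 437 in Treg, against 363, 404 and 435 in Teff, with −0.02 ± 0.15). Of its 16 peaks 3 were higher and 5 lower in Treg, and the lead peak, 27.6 kb into the gene, had 582, 447 and 595 in Treg, against 1408, 1069 and 803 in Teff (−0.99 ± 0.16). The largest change at Cd44 ran the other way, 80.2 kb upstream, with 440, 438 and 519 in Treg, against 108, 154 and 115 in Teff (1.89 ± 0.35). Nt5e (CD73) was higher at 1 of 5 peaks and Izumo1r (FR4) at 5 of 7, with 1 lower, and Teff had been sorted low for both. The lower Izumo1r peak was its lead peak, 4.39 kb upstream, with 714, 711 and 671 in Treg, against 1552, 1473 and 1137 in Teff (−0.98 ± 0.13). Nrp1, a coreceptor present on many Treg cells, was higher at 2 of 3 peaks (start site: 564, 683 and 627 in Treg, against 332, 358 and 373 in Teff; 0.81 ± 0.14). Cd4 itself was lower at 1 of 4 peaks, 2.42 kb into the gene (1026, 790 and 731 in Treg, against 1656, 1416 and 1353 in Teff; −0.81 ± 0.14).

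Over the whole table, 38493 peaks passed the filter on low reads and 12533 differed between Treg and Teff (32.6% of those tested, limma with Benjamini-Hochberg adjusted p under 0.05). Of these 5535 were higher in Treg (14.4%) and 6998 lower (18.2%). At 17420 peaks (45.3%) the 3 Treg libraries did not overlap the 3 Teff libraries, in either direction. The difference was at least 2-fold at 2772 higher and 2572 lower peaks. The balance of the directions moved with the scaling: 44.2% of the calls were higher in Treg on the deposited scale and 57.3% when libraries were scaled to equal total reads in peaks, which shifted the median of all peaks by 0.10. Under all 6 scalings, 5466 peaks kept their higher call and 5112 their lower call. The 6 include DESeq2, which differs from limma in its test as well as in its scaling. Counts below are on the deposited scale, and where the count under all scalings, or without 1 library, differs by more than 1.5 times, it is given beside them for the lists, and under all scalings for single genes. Without Treg replicate 2 the calls were 4624 higher and 6012 lower, and without Teff replicate 3 they were 5697 higher and 6864 lower.

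**Figure D2:**
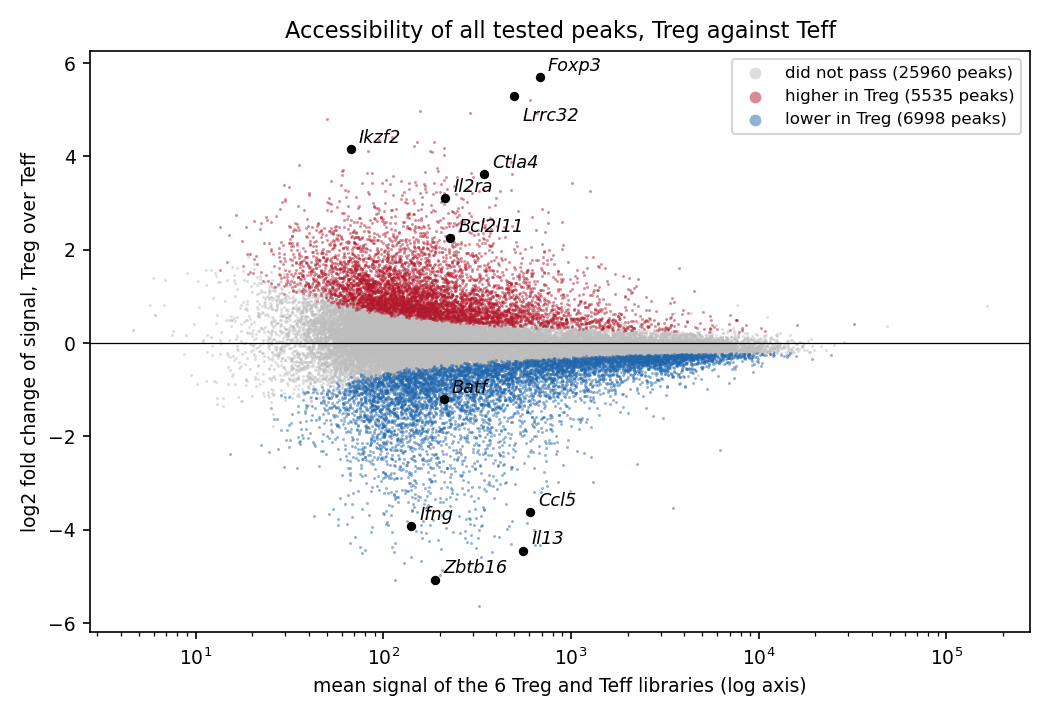
Each point is 1 of the 38493 tested peaks, with the mean signal of the 6 Treg and Teff libraries on a log axis and the log2 fold change, Treg over Teff. The 5535 higher and 6998 lower peaks are coloured, and the lead peaks of 11 genes are marked, with Foxp3 at 5.70 and Zbtb16 at −5.07.

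Most of the strong differences lay away from start sites, with 2538 of the 2772 higher and 2390 of the 2572 lower peaks of at least 2-fold at distal sites. Of the peaks centred no more than 1000 bases from a start site, 759 were higher and 2227 lower among 12762 tested (754 and 1323 under all scalings). Without Teff replicate 2 the lower promoter peaks came to 1169. Of the distal peaks, 4775 were higher and 4770 lower among 25664. Peaks higher in Treg had a median width of 329 bases, a median distance of 15.9 kb and 13.7% at promoters. Those lower in Treg had a median width of 517 bases, a median distance of 6.84 kb and 31.8% at promoters. The median log2 fold change was 1.0 for higher and −0.79 for lower peaks. By nearest gene, 2973 genes had at least 1 higher peak, 4422 had at least 1 lower peak and 796 had both. Among genes with 3 or more tested peaks, 82 had all of them higher and 60 had all of them lower.

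Genes of Treg identity and suppression were more accessible in Treg. Of 131 peaks nearest to 22 genes of this list, 87 were higher in Treg (66.4%) and 9 lower (6.9%, or 5 peaks without Teff replicate 1). Over all tested peaks 14.4% were higher and 18.2% lower. The list's median log2 fold change was 1.03, beside −0.02 over all tested peaks. Lrrc32 encodes GARP, which holds latent TGF-beta on the Treg surface, and 11 of its 11 peaks were higher. Its lead peak, 73.2 kb downstream (chr7:98562941-98563362), had 854, 1141 and 893 in Treg, against 8.31, 21.5 and 66.7 in Teff (5.30 ± 0.48, limma adjusted p = 4.1e-08). At its start site the signal was 2187, 2280 and 2332 in Treg, against 172, 203 and 380 in Teff (3.25 ± 0.21). The groups were apart at both, and the third Teff library was again the highest of its group.

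Ctla4, the inhibitory receptor that removes B7 ligands from antigen-presenting cells, was higher at 18 of 21 peaks and lower at 1. At the lead peak 21.8 kb upstream (chr1:60886927-60887450) the signal was 694, 492 and 724 in Treg, against 52.6, 36.3 and 66.7 in Teff (3.61 ± 0.27, limma adjusted p = 3.07e-09). At the start site it was 1765, 1688 and 2197 in Treg, against 830, 715 and 815 in Teff (1.25 ± 0.12). The 1 lower peak lay 11.5 kb downstream, with 508, 579 and 694 in Treg, against 866, 826 and 838 in Teff (−0.52 ± 0.15). So the gene's elements did not all move one way.

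Ikzf2 encodes Helios, a transcription factor of stable Treg cells, and 11 of its 17 peaks were higher. Its lead peak, 86.4 kb into the gene, had 111, 143 and 124 in Treg, against 6.92, 15.7 and 1.67 in Teff (4.16 ± 0.54). The value of 1.67 is 1 read, the lowest the table holds for that library. Itgb8 encodes the integrin subunit that releases active TGF-beta, and it was higher at 2 of 2 peaks (4.79 ± 0.65 at the lead). Its Teff values of 2.08, 0.826 and 6.67 lay near the floor of 3 reads, which is 2.08 to 5.0 units of signal in these libraries, so the size is loosely set. Ikzf4, encoding the Helios relative Eos, had 1 peak with 1346, 1398 and 1727 in Treg, against 649, 719 and 822 in Teff (1.03 ± 0.14).

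Cd83, a membrane protein of activated lymphocytes, was higher at 16 of 17 peaks. Its lead peak 19.7 kb upstream had 497, 570 and 591 in Treg, against 32.5, 42.9 and 70.0 in Teff (3.55 ± 0.26). Of the other members, Swap70 was higher at 5 of 5 peaks, Gpr83 at 2 of 2, Entpd1 at 2 of 3 (1 under all scalings), and Tnfrsf18 (GITR, in the TNF receptor list) at its 1 peak. Prdm1, encoding the effector-Treg factor BLIMP1, went the other way at most of its called peaks, with 5 lower (2 under all scalings) and 1 higher of 9. Il1rl1, Klrg1 and Tgfb1 were each lower at 1 of 2 peaks. Capg and Itgae had no called peak.

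**Figure D3:**
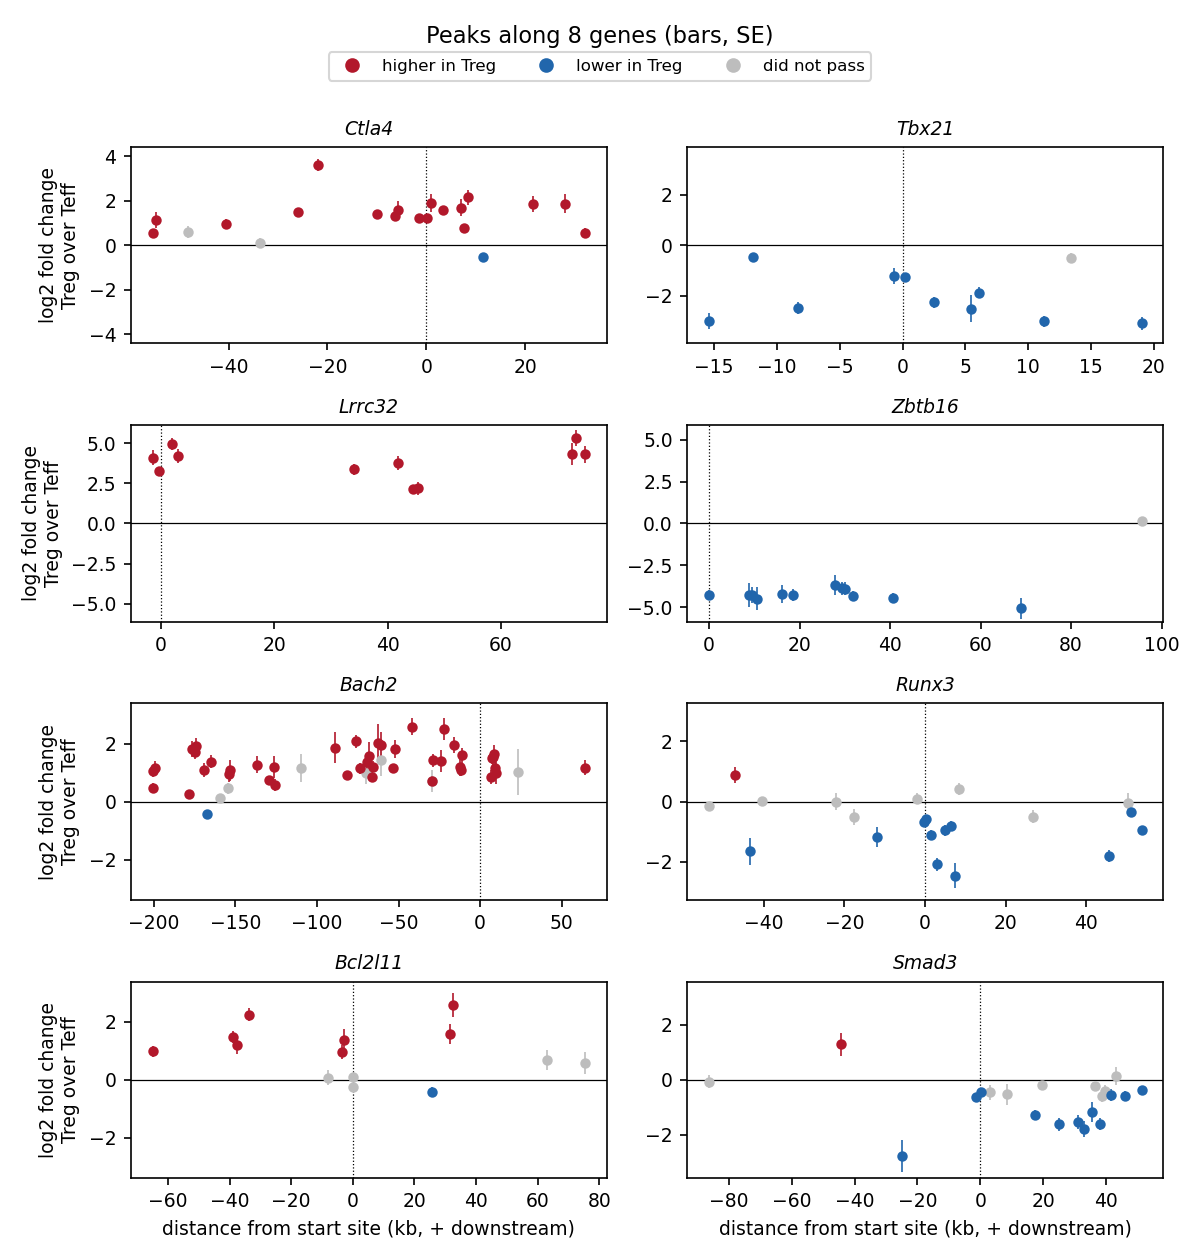
Log2 fold change, Treg over Teff, of each tested peak along 8 genes, against its distance from the nearest start site in kb, with bars of 1 standard error and colours for the call. All 11 Lrrc32 peaks lie above 0 and 12 of the 13 Zbtb16 peaks lie near −4 or below, while Ctla4, Bcl2l11, Runx3 and Smad3 hold peaks of both directions.

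The study's title names Batf and the gene of BIM, Bcl2l11. BIM is a BH3-only protein that sets off mitochondrial cell death, and BATF is an AP-1 family factor that can act together with IRF4. Of the 14 Bcl2l11 peaks 8 were higher in Treg and 1 lower. The lead peak, 33.8 kb upstream in an intron of Acoxl (chr2:128092094-128092476), had 305, 430 and 396 in Treg, against 78.2, 94.2 and 63.3 in Teff (2.25 ± 0.23, limma adjusted p = 1.57e-07). The lowest Treg library was more than 3 times the highest Teff library. The mean was 382 in anergic and 66.2 in naive libraries, so anergic stood with Treg and naive with Teff at this element.

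A Bcl2l11 peak in the 3′ UTR (chr2:128159764-128160169) had 234, 213 and 208 in Treg, against 28.4, 46.2 and 33.3 in Teff (2.59 ± 0.42). Here the anergic mean was 16.9 and the naive mean 268, so the order of those groups was the reverse of that at the upstream peak. The Bcl2l11 peak over the 5′ UTR did not pass (2680, 2631 and 2831 in Treg, against 2494, 2774 and 2354 in Teff; 0.10 ± 0.10, limma adjusted p = 0.504). The neighbouring intronic peak at the start site did not pass either (−0.24 ± 0.11). The 1 lower Bcl2l11 peak, 25.8 kb into the gene, had 1135, 1198 and 1065 in Treg, against 1598, 1810 and 1237 in Teff (−0.43 ± 0.17, limma adjusted p = 0.0491), and it did not keep its call under all scalings.

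Batf had 10 tested peaks, of which none was higher and 1 was lower in Treg. That peak, 25.6 kb upstream, had 118, 168 and 100 in Treg, against 276, 325 and 270 in Teff (−1.20 ± 0.23, limma adjusted p = 0.000458). At the Batf 5′ UTR the groups overlapped, with 963, 830 and 985 in Treg and 1410, 974 and 1008 in Teff (−0.27 ± 0.14, limma adjusted p = 0.144). In the wider list of cell death genes, 28 of 90 peaks were higher (31.1%) and 4 lower (4.4%), beside 14.4% and 18.2% of all tested peaks. The list's median was 0.28. The lower count was 2 under all scalings, and also 2 without Treg replicate 1, Teff replicate 1 or Teff replicate 2. Pmaip1 (NOXA, another BH3-only gene) was higher at 7 of 8 peaks, with 168, 149 and 184 in Treg, against 36.0, 37.2 and 61.7 in Teff at its lead peak (1.91 ± 0.27). Mcl1, which encodes a survival protein, was also higher, at 4 of 8 peaks (1.46 ± 0.24 at the lead). Bcl2 had no called peak among 5.

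Several cytokine genes of the helper programs were less accessible in Treg than in Teff, Il4, Il13, Ifng and Il2 among them. Of 128 peaks nearest to cytokine and TNF ligand genes 26 were higher (20.3%) and 52 lower (40.6%), beside 14.4% and 18.2% of all tested peaks. The higher count was 17 without Teff replicate 1, and the list's median was −0.35. Of the 21 genes behind these peaks 10 had lower calls and no higher ones, 3 had higher calls and no lower ones, 3 had both and 5 had none. The genes with no call were Il5 (0 of 2 peaks), Il22 (0.65 ± 0.27 at its 1 peak), Csf2 (−0.37 ± 0.28 at its 1 peak), Csf1 (0 of 3) and Il16 (0 of 4). Il13 and Il4, neighbours in the Th2 cytokine cluster, were lower at 7 of 7 and 4 of 4 peaks. At the Il13 lead peak, 7.71 kb downstream (chr11:53626709-53627279), the signal was 34.9, 55.3 and 55.7 in Treg, against 1058, 1231 and 905 in Teff (−4.44 ± 0.24, limma adjusted p = 1.16e-10). In the first coding stretch of Il4 it was 9.01, 10.6 and 11.4 in Treg, against 217, 230 and 213 in Teff (−4.29 ± 0.42). Each Teff library stood far above each Treg library at both. A run of 17 neighbouring called peaks, all lower, covered 193.1 kb across Sowaha, Septin8, Kif3a, Il4 and Il13, with a median of −2.88.

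Ifng, encoding the Th1 cytokine interferon-gamma, was lower at 4 of 11 peaks and higher at 3. At its start site the signal was 63.1, 138 and 44.3 in Treg, against 1261, 1107 and 887 in Teff (−3.86 ± 0.28, limma adjusted p = 2.03e-09). At the lead peak 5.49 kb upstream it was 30.4, 57.5 and 1.27 in Treg, against 345, 251 and 163 in Teff (−3.92 ± 0.71), where 1.27 is 1 read. Il2, the growth factor that Treg cells consume and do not make, was lower at both of its peaks, with 57.4, 149 and 51.9 in Treg, against 308, 351 and 335 in Teff at the start site (−2.10 ± 0.29). Il21 was lower at 4 of 7 peaks (2 under all scalings) and Il17a at 2 of 2. At the Il17a peak 13.2 kb downstream the Treg libraries were uneven, with 118, 402 and 542, against 855, 1503 and 1625 in Teff (−2.11 ± 0.45).

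Among ligands of the TNF family, Cd40lg, whose product licenses B cells and dendritic cells, was lower at 7 of 9 peaks (57.4, 100 and 100 in Treg, against 471, 478 and 425 in Teff at the lead; −2.45 ± 0.20). Fasl, the death ligand, was lower at 11 of 19 and higher at 1. Tnfsf8, encoding CD30 ligand, was higher at 13 of 21 and lower at none. Il10, an anti-inflammatory cytokine gene, was higher at 7 of 13 and lower at 2, with 373, 534 and 515 in Treg, against 139, 93.3 and 158 in Teff at a peak 18.8 kb downstream (1.87 ± 0.23). The anergic mean at that Il10 peak was 1256, above each of the Treg libraries.

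The Th1 and cytotoxic list held 59 lower (50.9%) and 13 higher (11.2%) peaks of 116 (median −0.55). Over all tested peaks 18.2% were lower and 14.4% higher. Tbx21, the gene of the Th1 factor T-bet, was lower at 10 of 11 peaks. Its lead peak 19.0 kb downstream had 30.4, 57.5 and 51.9 in Treg, against 406, 391 and 367 in Teff (−3.08 ± 0.26), and at the peak over its first coding exon the values were 378, 449 and 344 in Treg, against 881, 972 and 943 in Teff (−1.26 ± 0.14). Runx3, a partner of T-bet, was lower at 12 of 21 peaks and higher at 1. Ccl5, a chemokine gene, was lower at 3 of 3 (131, 87.3 and 59.5 in Treg, against 1251, 1240 and 847 in Teff at 4.51 kb upstream; −3.62 ± 0.29). The receptor genes Il12rb2 (5 of 6), Il18r1 (4 of 5), Cxcr3 (3 of 3) and Cxcr6 (3 of 3) were lower too, as were Nkg7 (3 of 3) and Gzmb (3 of 5). Against these, Hopx, encoding a small homeodomain protein, was higher at 4 of 9 and lower at 2. At the Hopx 5′ UTR peak the signal was 501, 492 and 613 in Treg, against 19.4, 40.5 and 90.0 in Teff (3.65 ± 0.39).

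The Th2 and Th17 lists did not follow their cytokines. Of 76 peaks of the Th2 list 21 were higher (27.6%) and 11 lower (14.5%), beside 14.4% and 18.2% of all tested peaks. The list's median was 0.27, and 11 of its higher peaks belonged to Dusp4, a phosphatase gene that dampens MAP kinases. Gata3, the Th2 factor, was higher at 2 and lower at 2 of 13, and its lead peak 76.9 kb downstream had 95.7, 102 and 162 in Treg, against 638, 654 and 433 in Teff (−2.27 ± 0.23). Of 96 peaks of the Th17 list 34 were higher (35.4%) and 11 lower (11.5%), with a median of 0.31. Il6st, encoding the shared IL-6 signal chain gp130, held 19 of the higher ones. Stat3 was higher at 2 of 6 peaks (366, 432 and 370 in Treg, against 31.2, 31.4 and 38.3 in Teff at 12.9 kb upstream; 3.5 ± 0.58). Rora, which with RORgt drives Th17 cells, was lower at 6 of 12. In the Tfh list 16 of 63 peaks were higher (25.4%, or 10 peaks without Teff replicate 1) and 9 lower (14.3%). Within it Cxcr5 was higher at 5 of 9 and P2rx7 lower at 6 of 7.

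**Figure D4:**
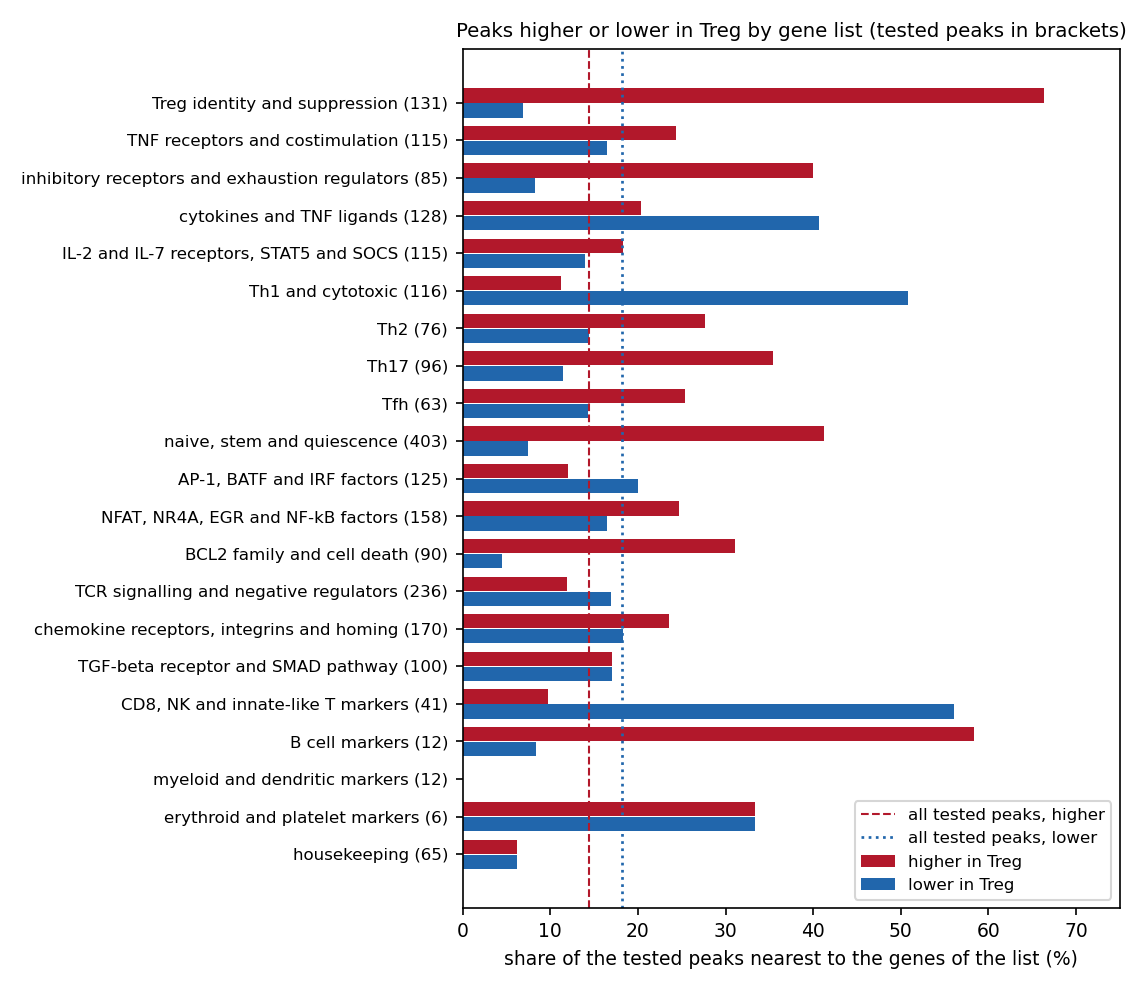
Share of the tested peaks nearest to the genes of each of 21 lists that were higher or lower in Treg than in Teff, in percent, with dashed and dotted lines at the shares over all tested peaks (14.4% higher and 18.2% lower). Treg identity genes reach 66.4% higher, and the Th1 and cytotoxic list reaches 50.9% lower.

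Peaks near genes of naive, stem-like and quiescent T cells were more often higher than lower in Treg, though not at every gene. Of the 403 peaks of 19 genes 166 were higher (41.2%) and 30 lower (7.4%), beside 14.4% and 18.2% of all tested peaks. The list's median was 0.46, and 8 of the genes held calls of both directions. Teff were sorted CD44high, and the Treg sort given above names no CD44 gate. The part of CD44low Treg cells in these calls was not tested. Of the higher peaks 43 were nearest to Bach2 and 40 to Foxp1. Bach2 encodes a repressor that keeps T cells from effector fates, and 43 of its 51 peaks were higher and 1 lower. At the lead peak 42.0 kb upstream the signal was 215, 170 and 210 in Treg, against 32.5, 43.8 and 23.3 in Teff (2.58 ± 0.30), and the mean was 36.5 in anergic and 169 in naive libraries. Foxp1, a quiescence factor, was higher at 40 of 56 and lower at none. At its lead peak 73.9 kb upstream the signal was 172, 126 and 119 in Treg, against 8.31, 6.61 and 28.3 in Teff (3.44 ± 0.51). There the mean was 61.6 in anergic and 8.21 in naive libraries, so the naive libraries did not share this peak.

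Ccr7, the gene of a lymph node homing receptor, was higher at 9 of 18 and lower at 2. At the Ccr7 start site the signal was 3074, 2597 and 2989 in Treg, against 1648, 1478 and 1843 in Teff (0.80 ± 0.11). Klf2 was higher at 7 of 16 with 1 lower, which lost its call under all scalings, and Ets1 was higher at 21 of 49 with 4 lower (2 under all scalings). Lef1 was higher at 12 of 49 and lower at 3. Its Wnt-pathway partner Tcf7 had no higher peak and 6 lower of 27, with 346, 409 and 253 in Treg, against 878, 863 and 620 in Teff at 35.6 kb upstream (−1.24 ± 0.20). The main Tcf7 promoter peak did not pass (2353, 2533 and 2175 in Treg, against 2046, 2251 and 3014 in Teff; −0.03 ± 0.13).

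Inhibitory and costimulatory receptors split by gene. Of 85 peaks of the inhibitory receptor list 34 were higher (40%) and 7 lower (8.2%), beside 14.4% and 18.2% of all tested peaks. The list's median was 0.49, and its lower count was 4 under all scalings and 4 without Treg replicate 1. Tox, a factor of chronic stimulation, was higher at 13 of 22 (126, 74.5 and 86.1 in Treg, against 19.4, 5.78 and 3.33 in Teff at the lead; 3.48 ± 0.50). Tigit was higher at 5 of 11 with 1 lower, which lost its call under all scalings, and Pdcd1, encoding PD-1, was higher at 3 of 8 with 2 lower (1 under all scalings). Of 115 peaks of the TNF receptor and costimulation list 28 were higher (24.35%) and 19 lower (16.5%), with a median of 0.05. The lower share was near the 18.2% of all tested peaks, and the lower count was 12 without Teff replicate 2. The TNF receptor genes Tnfrsf4 (OX40, 3 of 3), Tnfrsf9 (4-1BB, 8 of 9) and Tnfrsf8 (CD30, 8 of 10) were higher with none lower. Other TNF receptor genes held lower calls. Tnfrsf1a was lower at 3 of 6 peaks and higher at none, and Tnfrsf1b was lower at 2 of 9 and higher at 1. Tnfrsf25 was lower at 1 of 5, and Cd27 was lower at 1 of 4 and higher at 1. The lower calls of Tnfrsf25 and Cd27 were lost under all scalings. At the Tnfrsf4 lead peak the signal was 635, 700 and 542 in Treg, against 105, 136 and 190 in Teff (2.15 ± 0.20). Icos was higher at 3 and lower at 4 of 21, and Cd28 higher at 2 and lower at 3 of 23.

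Of 115 peaks of IL-2 receptor, IL-7 receptor and STAT5 genes 21 were higher (18.3%) and 16 lower (13.9%), with a median of 0.17, beside 14.4% and 18.2% of all tested peaks. The lower count was 10 under all scalings and 9 without Teff replicate 1. Both shares lay near those of all peaks. Il2ra, given with the sort markers, is not in this list, and 9 of its 13 peaks were higher and none lower. Cish, a STAT5 target, was higher at 6 of 8 (324, 345 and 292 in Treg, against 42.2, 58.6 and 86.7 in Teff at the lead; 2.40 ± 0.34), and Stat5b was higher at 7 of 19 and lower at 2. Il2rb was lower at 2 of 5 and Il7r at 5 of 12 (3 under all scalings), with 2 higher for Il7r. Low IL-7 receptor is a known surface trait of Treg cells. At the Il2rb lead peak the signal was 107, 85.1 and 69.6 in Treg, against 345, 328 and 300 in Teff (−1.90 ± 0.29).

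Transcription factor genes downstream of the T cell receptor held calls of both directions. In the list of NFAT, NR4A, EGR and NF-kB genes 39 of 158 peaks were higher (24.7%) and 26 lower (16.5%), with a median of 0.15. The lower share was near the 18.2% of all tested peaks. Nfatc1 was lower at 11 of 17 and higher at 1, and Nfatc2 was lower at 6 of 13 (4 under all scalings). At the Nfatc1 lead peak 23.6 kb into the gene the signal was 189, 209 and 172 in Treg, against 1833, 1487 and 1228 in Teff (−2.97 ± 0.19, limma adjusted p = 4.54e-10). The anergic mean there was 1347, within the range of the Teff libraries. Nr4a2, an orphan nuclear receptor gene, was higher at 5 of 5, and Nfkb1 was higher at 8 of 20 with none lower. Among AP-1, BATF and IRF genes 15 of 125 peaks were higher (12%) and 25 lower (20%), near the 14.4% and 18.2% of all tested peaks, with a median of 0.03. When libraries were scaled to equal total reads in peaks 24 were higher. Within the list Nfil3 was higher at 6 of 7 peaks and Irf1 lower at 4 of 10.

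Genes of proximal T cell receptor signalling had 28 higher (11.9%) and 40 lower (17%) of 236 peaks, near the 14.4% and 18.2% of all tested peaks, and their median of −0.05 turned to 0.06 when libraries were scaled to equal total reads in peaks. Lck was lower at 4 of 5 peaks and Ptpn22, a phosphatase that restrains Lck, at 6 of 11 (278, 292 and 323 in Treg, against 1378, 1534 and 1085 in Teff at the lead; −2.15 ± 0.21). Cd247 was higher at 6 of 24 and Cblb at 5 of 19, with none and 1 lower. In the TGF-beta list 17 of 100 peaks were higher and 17 lower, again near the shares of all peaks, with a median of 0.02. The lower count was 10 under all scalings, 9 without Teff replicate 2 and 11 without Treg replicate 3. Smad3 was lower at 12 of 21 and higher at 1, while Smad7, an inhibitor of the pathway, was higher at 7 of 13 and lower at none. Chemokine receptor, integrin and homing genes had 40 higher (23.5%) and 31 lower (18.2%) of 170 peaks (median 0.07). The lower share was that of all tested peaks. Itgav, the partner chain of Itgb8, was higher at 7 of 8 (434, 432 and 448 in Treg, against 41.5, 60.3 and 41.7 in Teff at the lead; 3.19 ± 0.30). Cxcr4 was higher at 9 of 23 and lower at 1. Housekeeping genes had 4 higher and 4 lower of 65 peaks, with a median of −0.01 that turned to 0.09 when libraries were scaled to equal total reads in peaks. Their lower count was 9 without Treg replicate 3, and without Teff replicate 3 they had 7 higher and 7 lower peaks.

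Among peaks with a mean signal of at least 100, the largest differences, with each gene counted once by its most changed peak, included genes outside these lists. After Foxp3 and Lrrc32 came a peak 63.2 kb upstream of Ppm1b, encoding a protein phosphatase, with 1182, 1013 and 1309 in Treg, against 18.0, 25.6 and 60.0 in Teff (5.21 ± 0.35, limma adjusted p = 1.07e-09). Arrdc1 followed, with 305, 287 and 319 in Treg, against 7.62, 7.43 and 11.7 in Teff (4.97 ± 0.37). The other genes among the 12 highest were Gsta1, Ncf1, Nup35, Emsy, Mpzl1, Dusp4, Hopx and Stk31, at 3.63 to 4.22. The Emsy peak adjoined the Lrrc32 peaks, in a run of 12 higher peaks over 92.4 kb with a median of 3.99. At the Nup35 and Stk31 peaks the anergic means were 389 and 771, near the Treg values of 353 to 444 and 807 to 1008.

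The largest lower peak lay in an intron of Slc35f3, with 11.3, 6.39 and 20.3 in Treg, against 791, 654 and 450 in Teff (−5.63 ± 0.39, limma adjusted p = 1.19e-09). The other genes among the 12 lowest, each again counted once, were Gpc1, Zbtb16, Man2a1, Inpp4a, Pir, Srbd1, Iqgap2, Nnmt, Atp10a, Il13 and Serpinb1b, at −5.07 to −4.41. Zbtb16 encodes PLZF, the factor of innate-like T cells such as invariant NKT cells, and 12 of its 13 peaks were lower. At its lead peak the signal was 3.38, 53.2 and 3.80 in Treg, against 477, 333 and 268 in Teff (−5.07 ± 0.63). The second Treg library stood well above the other two. The Nnmt peak lies in an intron of Zbtb16.

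Markers of other cells that the sort could hold were read beside these results. The list of CD8, NK and innate-like T cell genes had 4 higher (9.8%) and 23 lower (56.1%) of 41 peaks (median −0.69). Over all tested peaks 14.4% were higher and 18.2% lower. Of the list's lower peaks 12 were at Zbtb16, 6 at Klrb1c, 2 at Il2rb and 1 at Xcl1. The higher count was 2 without any 1 of Treg replicates 1 and 2 and Teff replicates 1 and 2. The list's summed signal ran from 29420 to 35060 in Treg and from 37330 to 40520 in Teff. Cd8a, Klrd1 and Ncr1 were nearest to no peak, and the 1 peak of Cd8b1 was higher in Treg, with 750, 613 and 726, against 179, 190 and 227 in Teff. The naive mean at the Cd8b1 peak was 1133, above each of the Treg libraries. The part of innate-like T cells in the Th1, Th2 and Zbtb16 results was not tested. Of B cell genes, 5 of 10 (Cd79a, Ms4a1, Pax5 and Blk among them) were nearest to no peak, and 7 of the 12 peaks of the others were higher and 1 lower (none without Teff replicate 1). Their summed signal ran from 2484 to 2731 in Treg and from 1079 to 1232 in Teff. The higher peaks were those of Cd74, Ly86 and Ebf1. The lower one was that of Cd22 (−0.95 ± 0.27), and none of the 4 Cd79b peaks was called. At the Cd74 lead peak the mean was 239 in Treg, 63.8 in Teff and 184 in naive libraries. Of 11 myeloid and dendritic cell genes 6 were nearest to no peak, and none of the 12 peaks of the rest was called (sums of 6446 to 7470 in Treg and 6371 to 7620 in Teff). Of 9 erythroid and platelet genes 6 were nearest to no peak, and 2 of 6 peaks were higher and 2 lower, or 1 without Teff replicate 2 (sums of 3201 to 3394 in Treg and 3597 to 3850 in Teff). The part of B, erythroid and platelet cells was not tested.

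Some of the called peaks lay in runs of neighbouring tested peaks called in 1 direction. No limit was set on the distance between neighbours, and a lower run of 5 peaks around App spanned 2399 kb. The number of runs to be found without any clustering was not tested. There were 116 runs of at least 5 consecutive called peaks that were all higher in Treg and 86 that were all lower. The longest higher run held 20 peaks over 175.5 kb around Pgpep1l and Fam169b (median 1.49), and another of 17 covered Rnf182 and Cd83 (median 2.03). After Bach2, Foxp1 and Ets1, the genes with the most higher peaks were Il6st (19 of 25), Cd2 (18 of 20), Ctla4, Cd83, Trib1 (16 of 23), Dad1 (16 of 54), Sik1 (15 of 22), Lrig1 (14 of 17) and Inpp4b (14 of 32). The Dad1 peaks reached into the neighbouring T cell receptor alpha locus, and at the lead one the naive mean of 374 stood above all 3 Treg libraries (74.3, 83.0 and 119). The most lower peaks were nearest to Mbp (21 of 27), Chd7 (16 of 22), Runx1 (15 of 32), Ankrd44 (14 of 27), Septin9 (14 of 34), Gramd3 (13 of 15), Prex1 (13 of 21) and Fyn (13 of 24). Runx1 and Fyn also had 3 and 2 higher peaks. At the Prex1 lead peak the signal was 117, 140 and 114 in Treg, against 1316, 1228 and 912 in Teff (−3.20 ± 0.18).

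Where Treg and Teff differed at least 4-fold, the anergic median lay between theirs. These peaks were picked for that difference, so a place between the groups says little about anergic cells by itself. At the 588 higher peaks the median of the group means was 198.5 in Treg and 32.7 in Teff, beside 148.5 in anergic and 15.6 in naive libraries. At the 673 lower peaks it was 41.4 in Treg and 275.1 in Teff, beside 77.8 in anergic and 42.1 in naive libraries. Single genes departed from this. At Lrrc32 the anergic mean was 20.8 and at the Ifng lead peak it was 257, both within the range of the Teff libraries, and at the Il21 lead peak it was 492, above the 177 to 205 of the Teff libraries.

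The letters under the peaks also differed, described here without a test. Among distal peaks, the AP-1 motif lay in 21.8% of the 4775 higher peaks, 13.1% of the 4770 lower peaks and 14.1% of those that did not pass (15.3% of all distal peaks). In the 550 distal peaks at least 4-fold higher it lay in 32.0%. NR4A letters lay in 3.7% of higher, 1.3% of lower and 1.4% of other distal peaks (1.79% of all), and the Ppm1b window printed above holds 2 matches. NFAT letters (TGGAAAA) lay in 9.2%, 5.8% and 7.0% (7.18% of all), and NF-kB letters in 3.2%, 1.7% and 1.8% (2.05% of all). An AP-1 match lies 35 bases before the centre of the Il2ra window.

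Distal peaks lower in Treg held other letters. RUNX letters lay in 10.2% of higher, 25% of lower and 13.1% of other distal peaks (14.8% of all), and ETS letters (AGGAAGT) in 14.9%, 24.9% and 17.7% (18.5% of all). T-box letters lay in 1.2%, 4.3% and 1.7% (2.09% of all), and in 11.6% of the 640 distal peaks at least 4-fold lower. Both RUNX and T-box letters appear in the Pir window. The forkhead letters TGTTTAC, the core that FOXP3 and FOXO factors read, lay in 5.0%, 5.5% and 4.7% (4.89% of all). The core of the CTCF motif lay in 9.7% of higher, 2.0% of lower and 15.0% of other distal peaks (11.6% of all). The median GC content of the windows was 48.3%, 49.3% and 49.7% in the 3 sets. RUNX, ETS, AP-1 and T-box factors each come as families whose members read nearly the same letters, so no single factor is named by them.

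**Figure D5:**
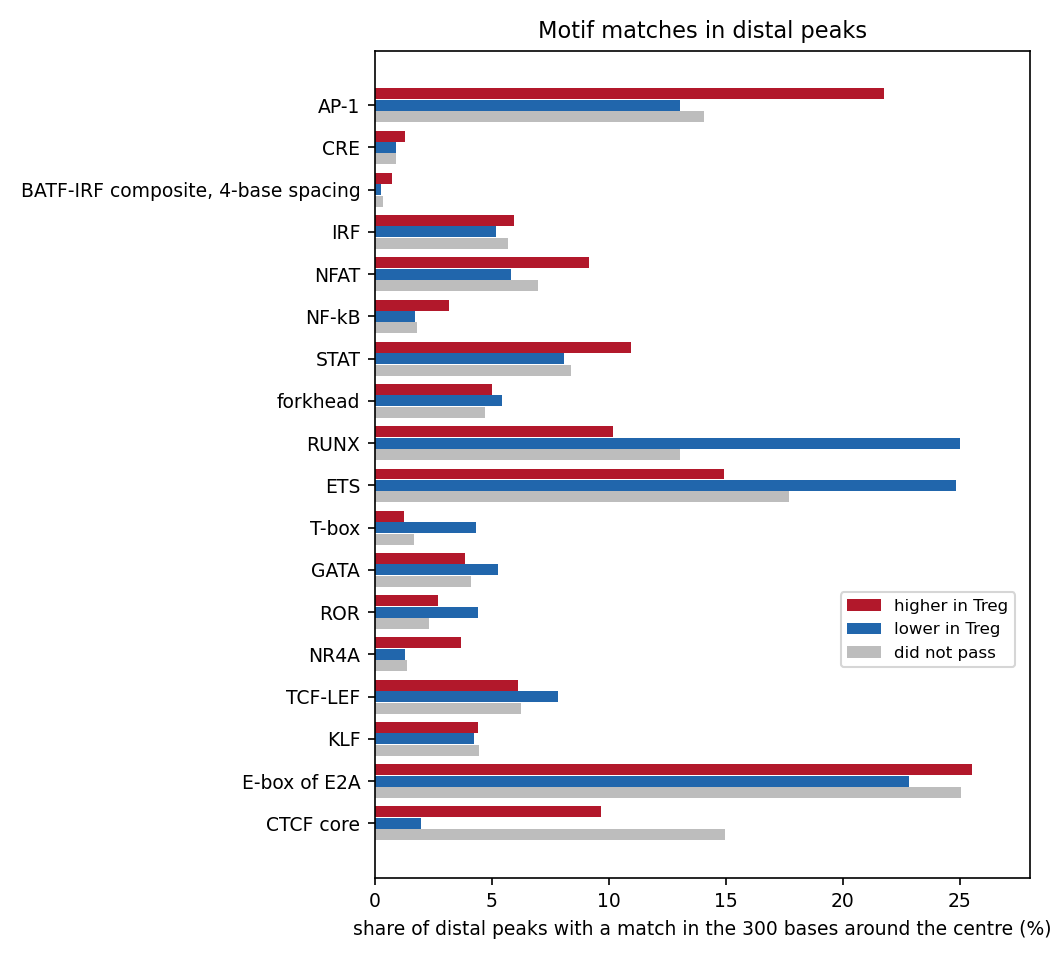
Share of distal peaks, in percent, with a match to each of 18 motifs in the 300 bases around the centre, for peaks higher in Treg, lower in Treg and not passing the test. AP-1 letters are at 21.8% in the higher and 13.1% in the lower peaks, and RUNX letters at 10.2% and 25%.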

How the data were processed

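Chromatin accessibility was measured by ATAC-seq in 11 libraries. Per the labels' protocols and series design text, the authors trimmed the reads, aligned them to mm10 with Bowtie2 2.3.3.1, called peaks in each sample with Genrich 0.5, which removed PCR duplicates and adjusted for the transposase cut sites, left out mitochondrial and blacklisted regions, and built the consensus peaks with DiffBind. The values are the authors' deposited signal per peak, whose scaling is not given in the sources used here. Divided by the smallest value of its library, 100% of the values came out whole within 0.01, so reads were recovered, and a value of 1 read may stand for 0. Reads in peaks ran from 14.7 to 68.8 M per library, which sets the counting error.

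Treg was tested against Teff with limma 3.58.1 (R 4.3.3) on log2(signal + 1), with trend, in 1 fit over the 4 groups and 11 libraries, after edgeR's filter on low reads (16 peaks removed), with Benjamini-Hochberg adjustment over 38493 peaks. edgeR 4.0.16 and DESeq2 1.42.0 on the recovered reads, 4 scalings, 2 pseudocounts, no filter, 6 libraries, thinning, a replicate block, each replicate left out and Treg against Teff replicate 3 alone were alternatives. Peaks on 68 unplaced contigs have no gene here. Peaks were matched to start sites of 45756 RefSeq transcripts of GRCm38.p6, and a promoter peak has its centre within 1000 bases. The authors' peak width counts both ends, and starts are printed as deposited.

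The comparison, the 21 gene lists, of 322 genes, and the 18 motifs were chosen with earlier results of these data known. Named peaks follow 4 rules: the sort markers and title genes; the 12 largest higher and 12 largest lower peaks, each gene once, with no overlap of libraries and a mean signal of at least 100; up to 4 genes per list; and the 12 genes with the most called peaks in each direction. Start-site peaks and other members of the lists were added after their values were seen. Some genes of the lists are not reported here by name.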

Additional observations from a re-analysis of the deposited data

How the results depend on the processing

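Over 19 alternative settings neither total, of higher or of lower peaks, changed by more than 1.5 times except in 1 added after seeing the data, Treg against Teff replicate 3 alone, which gave 2262 higher and 2226 lower calls and lost the call of 20 of the 124 named peaks, the Cd44 and Nt5e lead peaks included. That setting has 1 Teff library, assumed to vary like the libraries of the other groups. The part of the sample number and of replicate 3 itself in the fewer calls was not tested. Leaving out only Teff replicate 1, 2 or 3 gave 9534, 9082 and 12561 calls. edgeR gave 6400 higher and 5827 lower calls and shared 90.3% of the main calls. Scaling to equal total reads gave 6935 and 5163, TMM 6302 and 5808, and DESeq2 5951 and 7206. Leaving out 1 library gave 4145 to 5697 higher and 4937 to 6864 lower calls, and 1 to 3 of the named peaks lost their call each time, all among those nearest to Angptl2, Tgfbr3, Cd22 and Klf1. Counts within a class or list moved more, as the lower promoter peaks did (1169 without Teff replicate 2). No main call was called in the opposite direction under any setting. The share of calls higher in Treg passed from 44.2% to 57.3% with the scaling, and promoter peaks from 759 higher and 2227 lower to 1283 and 1340, so the balance of directions is not settled. With the replicate number as a block 5813 were higher and 7398 lower. Deviations of same-numbered libraries correlated at 0.154, −0.0154 and −0.0537, and those of differently numbered libraries at −0.158 to 0.145. With so few libraries these correlations cannot tell whether same-numbered libraries shared a source.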
